A study of Mus musculus with 2 samples.

Results

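Reads from 8 microRNA (miRNA) genes of early embryonic and pluripotent cells were examined in the adult mouse adrenal gland, out of 2202 miRNA genes counted. They are the 5 genes of the miR-302 cluster on chromosome 3 (Mir302a, Mir302b, Mir302c, Mir302d and Mir367) and 3 genes of the miR-290 cluster on chromosome 7 (Mir293, Mir294 and Mir295), taken by their names in the GENCODE M21 annotation. The tissue came from female adult 5xFAD/CAST mice 8 to 10 months old, and the labels give no treatment. 5xFAD mice carry transgenes of familial Alzheimer's disease, CAST is an inbred strain of castaneus origin, and the labels do not say which alleles each animal carried. The study has 1 group of 2 libraries, biological replicates 1 and 2, whose biosamples differ but whose donor identifier is the same, so the spread between them may be technical. With 1 group there is no contrast between conditions, and the data give the levels of the 8 genes and how far the libraries differ.

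Pluripotent cells of the early embryo express both clusters. Each is transcribed as 1 precursor RNA that is cut into several hairpins, and each hairpin into mature strands that repress messenger RNAs through the seed, the bases near the 5′ end that pair with targets. In mouse, the miR-290 cluster is known as the main miRNA cluster of naive embryonic stem cells and the miR-302 cluster as that of the later epiblast. Both are induced by pluripotency factors such as Oct4 and Sox2, speed the passage from G1 into S phase by repressing cell cycle inhibitors such as Cdkn1a, and are shut down on differentiation. Little or no expression is therefore the textbook state of an adult gland, and the source of the reads seen here was not tested.

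The mature sequences of both clusters are shown because the shared seed is what joins the clusters and because their shared stretches bear on how reads could be assigned. All 8 genes had an entry in the RefSeq miRNA table (build GRCm38.p6), which gave 15 mature strands. They are written 5′ to 3′ with the seed, bases 2 to 8, in capitals. miR-302a-3p had no entry.
mmu-miR-302b-3p: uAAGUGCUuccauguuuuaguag
mmu-miR-302d-3p: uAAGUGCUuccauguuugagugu
mmu-miR-302c-3p: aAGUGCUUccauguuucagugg
mmu-miR-294-3p: aAAGUGCUucccuuuugugugu
mmu-miR-295-3p: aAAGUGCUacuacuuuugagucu
mmu-miR-293-3p: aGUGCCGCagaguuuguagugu
mmu-miR-367-3p: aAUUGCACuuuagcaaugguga
The seed AAGUGCU was carried by miR-302b-3p, miR-302d-3p, miR-294-3p and miR-295-3p, and, outside the 8 genes, by miR-291a-3p of the miR-290 cluster. No other entry of the 1738 mature sequences in the RefSeq table had it. The entry of miR-302c-3p starts 1 base later, so that its bases 2 to 8 read AGUGCUU although the letters that follow are those of its neighbours. miR-293-3p lacks the 6 letters AAGUGC at its start, and miR-367-3p has the unrelated seed AUUGCAC. The letters AAGUGC stood within bases 1 to 8 of 18 mature sequences (1.04% of the table), 9 of them from the 2 clusters.

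The 5′ strands showed a second grouping. They are given because counts are per hairpin, so that either strand may have supplied a read.
mmu-miR-302b-5p: aCUUUAACaugggaaugcuuucu
mmu-miR-302c-5p: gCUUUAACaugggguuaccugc
mmu-miR-302d-5p: aCUUUAACauggaggcacuugcu
mmu-miR-302a-5p: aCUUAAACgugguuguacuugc
mmu-miR-293-5p: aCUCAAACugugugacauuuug
mmu-miR-294-5p: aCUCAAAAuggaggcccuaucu
mmu-miR-295-5p: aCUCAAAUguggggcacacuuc
mmu-miR-367-5p: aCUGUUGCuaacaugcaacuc
miR-302b-5p, miR-302c-5p and miR-302d-5p shared the seed CUUUAAC. The seeds of the 3 strands from chromosome 7 differ from one another only in the final letter.

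Sequence shared within the miR-302 cluster limits which reads could be assigned to a single gene. The longest stretch that the hairpins of Mir302a and Mir302b had in common was 20 bases, and miR-302b-3p, 23 bases long, shared 18 of them with Mir302a and 17 with miR-302d-3p. miR-302c-3p shared 16 of its 22 bases with Mir302b. The mature strands shown are therefore distinct at full length, while a read cut to the shared stretch would match several genes. Multimapping reads were assigned to no gene and made up 31.6% and 33.6% of the total in replicates 1 and 2, so levels within the miR-302 cluster may be too low by an amount that was not measured. On chromosome 7 the longest stretch shared with another miRNA gene was 14 bases for Mir293, 13 for Mir294 and 10 for Mir295. For Mir367 it was 11 bases.

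In mm10, the miR-302 cluster occupies 580 bases of the plus strand, chr3:127545228-127545807, in the order Mir302b, Mir302c, Mir302a, Mir302d and Mir367. It lies within Larp7, a gene for a protein of the 7SK RNA complex that spans chr3:127536714-127553349 on the opposite strand. The 5 hairpins fall in introns of the 2 Larp7 transcripts that span them, and no Larp7 exon overlaps them. The cluster is thus antisense to its surrounding gene. Mir302a (ENSMUSG00000065552.1) occupies chr3:127545496-127545564 and Mir367 (ENSMUSG00000065413.2) chr3:127545733-127545807. The miR-290 cluster occupies 2216 bases, chr7:3218626-3220841, with 9 annotated genes, 7 of them on the plus strand. Mir293 (chr7:3220343-3220422), Mir294 (chr7:3220641-3220724) and Mir295 (chr7:3220773-3220841) stand at its downstream end. They lie opposite to an exon of 1 transcript of Nlrp12, a gene of the NLR family, within its untranslated region.

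Levels are read counts per 1000000 reads on miRNA genes (CPM), from the column of the tables that holds 1 strand. A miRNA read covers a mature strand whatever the length of its hairpin, so CPM were not divided by length. The miRNA genes held 3635851 reads in replicate 1 and 6924829 in replicate 2, and a count of 0, taken as up to 3 reads, allows 0.825 and 0.433 CPM. With at least 10 reads in each library 356 genes were detected, and the median of these stood at 106 and 79.9 CPM. Listed markers of the gland were present, with all 4 neuroendocrine genes (Mir375 and the Mir7 genes) at 50709 and 48363 CPM in sum. Mir375 made up most of that sum, at 46454 and 43996 CPM, while Mir7-2 stood at 110 and 54.2 CPM. All 3 genes of the response to corticotropin summed to 14068 and 29536 CPM. Most of the latter sum was Mir21a, at 13006 and 28072 CPM, while Mir212 stood at 57.2 and 28.2 CPM. In each library the endothelial marker Mir126a was also high, at 56684 and 41532 CPM.

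Together the 8 genes took 0.0367% of the miRNA-gene reads in replicate 1, with a 95% interval (Clopper-Pearson, exact) from 0.0348 to 0.0387%. In replicate 2 the share was 0.0231%, with an interval from 0.0220 to 0.0243%. Their summed level was 299 ± 96.4 CPM (SD, n = 2). Of the 8, 6 were detected, Mir295 had fewer than 10 reads in each library, and Mir367 had none. The miR-302 cluster held 1142 reads in replicate 1 and 1350 in replicate 2, or 314 and 195 CPM. The 3 genes of the miR-290 cluster held 193 and 249 reads, or 53.1 and 36.0 CPM. The miR-302 cluster was 5.92-fold higher than these 3 genes in replicate 1 and 5.42-fold higher in replicate 2. Against all 9 genes of the miR-290 cluster, which reached 73.7 and 55.3 CPM, it was 4.26-fold and 3.52-fold higher.

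Mir302a, the third hairpin of the cluster, was the most abundant of the 8. It had 428 reads in replicate 1 (118 CPM, 95% interval 107 to 129) and 459 in replicate 2 (66.3 CPM, 60.4 to 72.6), a mean of 92 ± 36.4 CPM (SD, n = 2). That placed it at rank 181 of the 2202 genes by mean level, above the median of detected genes in replicate 1 and below it in replicate 2. Mir302b, the first hairpin of the cluster, followed with 367 and 439 reads, 101 and 63.4 CPM. Mir302d had 277 and 370 reads, 76.2 and 53.4 CPM. In replicate 1 the intervals of Mir302b (90.9 to 112 CPM) and Mir302a overlapped, and that of Mir302d (67.5 to 85.7 CPM) lay below both. In replicate 2 the interval of Mir302d (48.1 to 59.2 CPM) overlapped that of Mir302b (57.6 to 69.6 CPM) and lay below that of Mir302a.

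Mir302c was the lowest of the 4 Mir302 genes. It had 70 reads in replicate 1 (19.3 CPM, 95% interval 15.0 to 24.3) and 82 in replicate 2 (11.8 CPM, 9.42 to 14.7). Mir302a was 6.11-fold higher than it in replicate 1 and 5.60-fold higher in replicate 2, and Mir302d 3.96-fold and 4.51-fold higher. Mir302c lies between Mir302b and Mir302a, so the level did not follow the order along the precursor.

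Mir367, the last hairpin of the cluster and a relative of miR-25 and miR-92 by its seed, had no read in either library. Against the 3 reads that a count of 0 allows in each library, Mir302a was at least 143-fold higher in replicate 1 and at least 153-fold higher in replicate 2. Mir302d, the hairpin before it, which starts 396 bases into the cluster where Mir367 starts at 505, was at least 92.3-fold and 123-fold higher. Matches of the miR-367 strands outside the annotated miRNA genes were not searched.

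The make-up of the miR-302 cluster was close in both libraries. Mir302a gave 37.5% of its reads in replicate 1 (exact 95% interval 34.7 to 40.4%) and 34.0% in replicate 2 (31.5 to 36.6%). Mir302b gave 32.1% and 32.5%, and Mir302c 6.13% and 6.07%. Mir302d gave 24.3% (21.8 to 26.8%) and 27.4% (25.0 to 29.9%). For each of the 4 genes the intervals of the libraries overlapped, and no share moved by more than the width of its interval.

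On chromosome 7, Mir294, one of the most abundant miRNAs of embryonic stem cells, led with 124 reads in replicate 1 (34.1 CPM, 95% interval 28.4 to 40.7) and 130 in replicate 2 (18.8 CPM, 15.7 to 22.3). Mir293 had 66 and 114 reads, 18.2 and 16.5 CPM. Their intervals did not overlap in replicate 1 (14.0 to 23.1 CPM for Mir293) and did in replicate 2 (13.6 to 19.8 CPM for Mir293). Mir295 had 3 and 5 reads, 0.825 CPM (0.170 to 2.41) and 0.722 CPM (0.234 to 1.69), which is at the level that a count of 0 allows in replicate 1 and close to it in replicate 2. The ratio of Mir294 to Mir295 was 41.3 in replicate 1 (exact 95% interval 13.8 to 203) and 26 in replicate 2 (10.9 to 81.4), although their hairpins are neighbours that start 2015 and 2147 bases into the cluster. Among the 8 genes, the last hairpin of each cluster thus had the fewest reads on its chromosome. Over the whole miR-290 cluster this did not hold, as its first gene, Mir290a, had no read.

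Of the other 6 genes of the miR-290 cluster, Mir292 had 68 and 110 reads, 18.7 and 15.9 CPM, close to Mir293. Mir291a, which carries the seed AAGUGCU (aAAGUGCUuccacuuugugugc for its 3′ strand), had 7 and 21 reads. Mir291b had 0 and 3 reads, and it shares a 20-base stretch of its 5′ strand with Mir291a. Mir290a, Mir290b and Mir292b had none. Thus 6 of the 9 genes of the cluster had at least 1 read, with Mir292, Mir293 and Mir294 holding most of them.

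**Figure D1:**
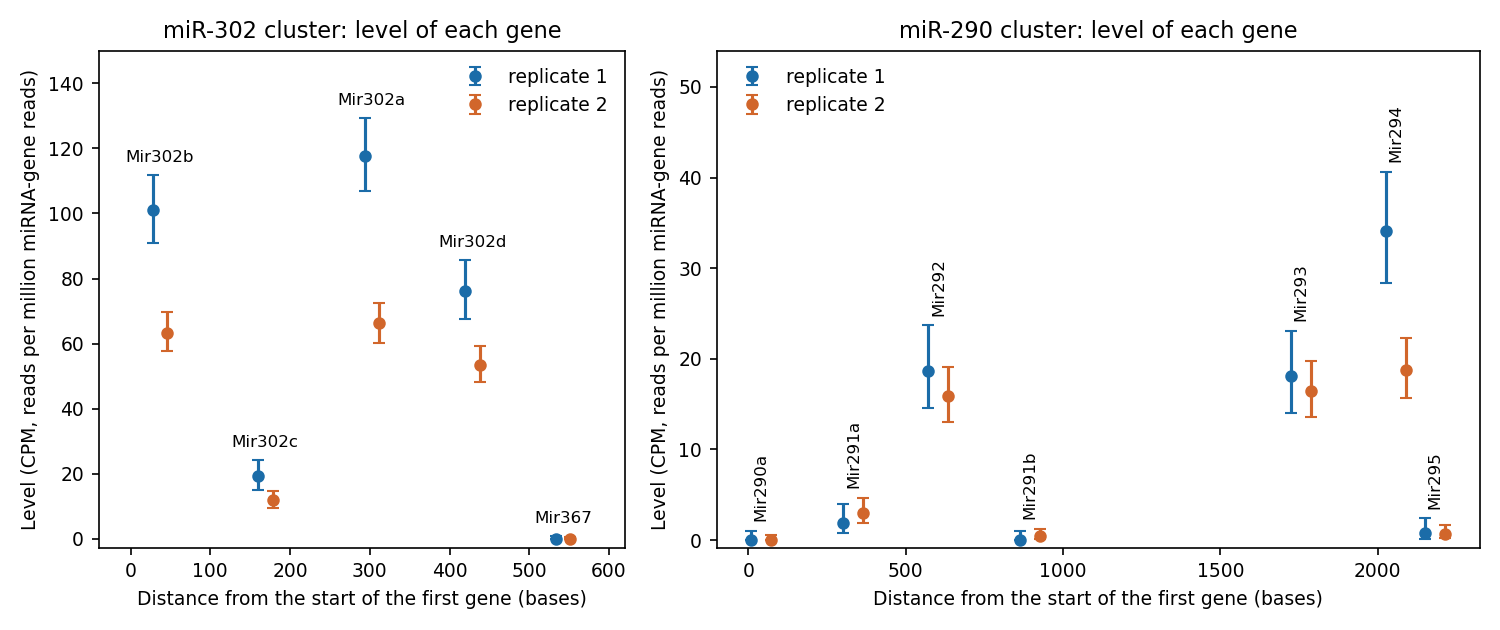
Level in CPM of each plus-strand gene of the miR-302 cluster (left) and the miR-290 cluster (right) against its distance in bases from the start of the first gene. Points are libraries, bars are exact 95% intervals for counting error, and Mir367 and Mir290a are at 0 in both libraries while Mir302a reaches 118 CPM in replicate 1.

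Strand was clear for these genes. For each of the 8 the both-strand column held the same number of reads as the strand column, and the other-strand column held none. Mir292 differed, with no read in the both-strand column, because it overlaps Mir292b on the other strand.

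**Figure D2:**
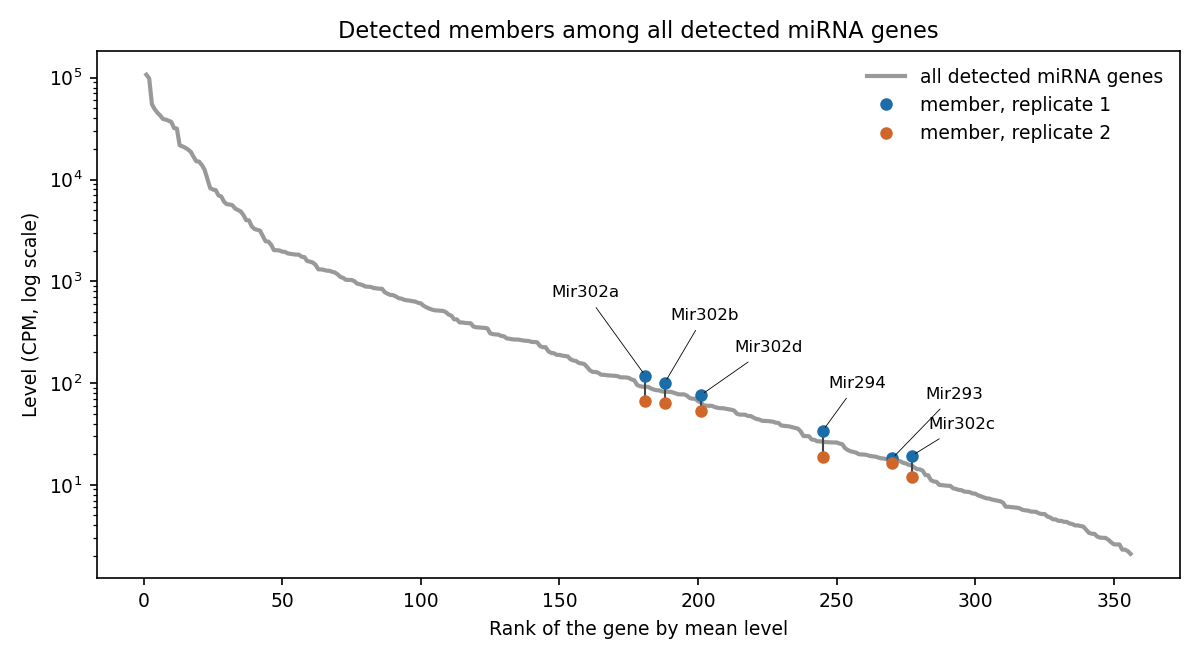
Mean level (CPM, log scale) of the 356 detected miRNA genes in order of rank (grey), with the level of the 6 detected members in each library. Mir302a stands at rank 181 and Mir302c at rank 277, and replicate 2 lies below replicate 1 for each of the 6.

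The next question was how the 2 libraries differed. Mir302a, Mir302b, Mir302c, Mir302d and Mir294 were lower in replicate 2, by 0.83, 0.67, 0.70, 0.51 and 0.86 as differences in log2 CPM, whereas Mir293 was at -0.15 and was not called. That is 5 of the 6 members tested, all called lower, beside 35.6% of the 455 genes tested that were called lower, 16.9% called higher and 52.5% called in either direction by Fisher's exact test (two-sided, at least 10 reads in both libraries together, Benjamini-Hochberg over all 455 genes). The median log2 ratio was -0.69 over the 6 members and -0.18 over all genes tested. Members were chosen with earlier results of these data known. The count and the median therefore describe them and do not test whether they fell more than other genes. Hairpins of 1 precursor are not independent, so the 4 Mir302 genes do not count as 4 separate observations. Fisher's test takes in counting error alone and sets 1 library against the other, with no condition behind it.

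In values, Mir302a fell from 118 to 66.3 CPM, a log2 ratio of -0.83 (exact 95% interval -1.02 to -0.64, adjusted p = 1.04e-16 by Fisher's exact test). For Mir302b the ratio was -0.67 (-0.87 to -0.47, adjusted p = 3.29e-10 by Fisher's exact test). The ratio of Mir302d was the smallest of the cluster at -0.51 (-0.74 to -0.28, adjusted p = 3.05e-05 by Fisher's exact test). Mir302c, with fewer reads, had a ratio of -0.70 with a wide interval (-1.18 to -0.22, adjusted p = 0.00770 by Fisher's exact test). The intervals of the 4 genes overlapped one another, and the summed cluster stood at -0.69 (-0.80 to -0.57).

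On chromosome 7, Mir294 had a log2 ratio of -0.86 (-1.23 to -0.49, adjusted p = 6.93e-06 by Fisher's exact test), and Mir293 one of -0.15 (-0.59 to 0.32, adjusted p = 0.641). The difference between these neighbours was not tested. Mir293 gave 34.2% of the reads of the 3 genes in replicate 1 (27.5 to 41.4%) and 45.8% in replicate 2 (39.5 to 52.2%), and these intervals overlapped. Mir292 was at -0.24 and was not called (adjusted p = 0.418 by Fisher's exact test). Mir291a, at 0.59, was not called either (adjusted p = 0.444). None of the 6 further genes of the cluster was called in either direction, with 2 of them tested. Mir295 and Mir367 had too few reads to be tested.

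**Figure D3:**
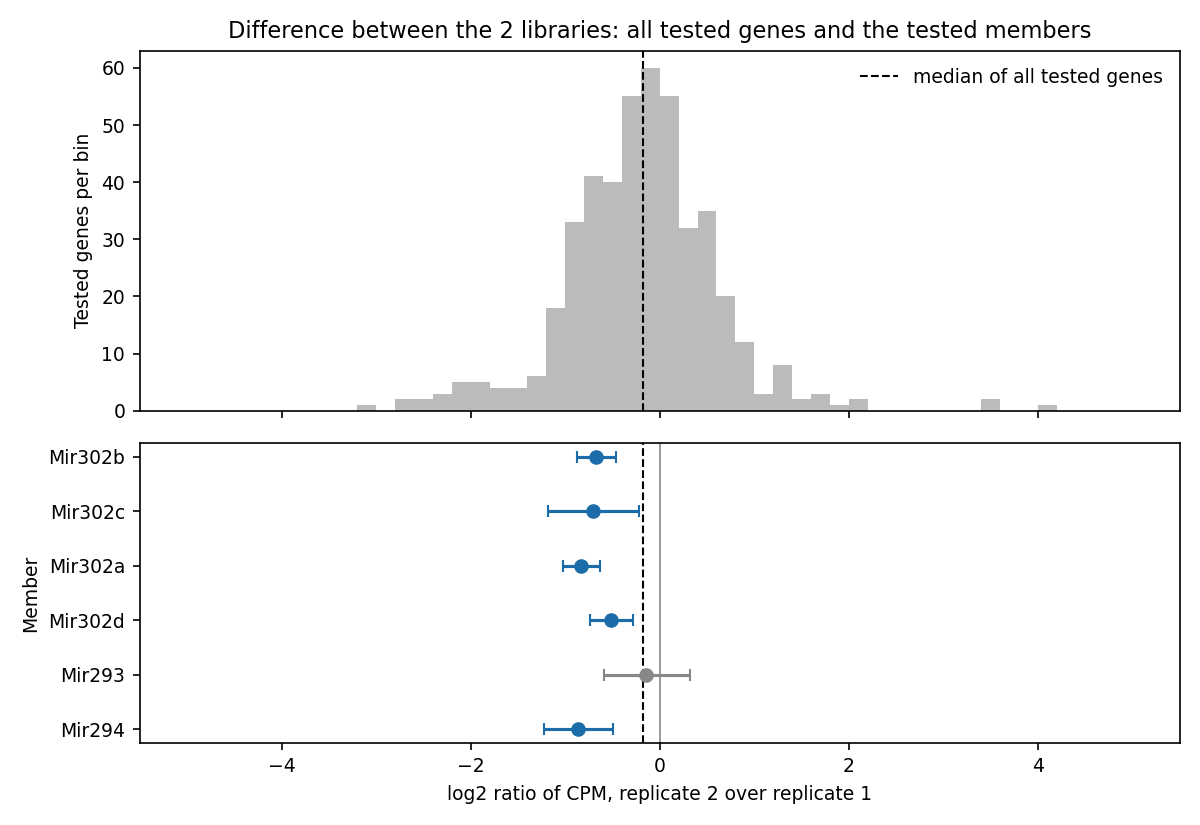
Upper panel, number of tested genes by log2 ratio of CPM (replicate 2 over replicate 1); lower panel, the ratio of each tested member with its exact 95% interval for counting error, blue where called lower. The dashed line is the median of the 455 tested genes at -0.18, and the interval of Mir293 includes it.

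The size of these differences depended on scaling and their call on the kind of error allowed. TMM scaling raised every log2 ratio by 0.20 and DESeq2 size factors by 0.18, which moved the split of all calls from 162 lower and 77 higher to 116 and 124 with TMM and to 121 and 119 with DESeq2. Relative to TMM totals Mir302a stood at -0.63, Mir294 at -0.66, Mir302b at -0.47 and Mir302d at -0.31, each called lower by an exact binomial test. Mir302c, at -0.50, was not called (adjusted p = 0.0668 by that exact test). Thus 4 of 6 members were lower with TMM totals, beside 25.5% of all genes lower, 27.3% higher and 52.7% called in either direction. With DESeq2 size factors 4 of 6 were lower, beside 26.6% of all genes lower, 26.2% higher and 52.7% in either direction. Mir293 turned to 0.054 and 0.031 under these scalings and was again not called.

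A further test let genes vary between libraries beyond counting error, with 1 dispersion for all genes estimated from these same 2 libraries (edgeR's exact test). It called 0 of the 6 members and 5 of the 455 genes (1.1%), 4 of them lower (0.879%) and 1 higher (0.22%). The coefficient of variation behind that test was 31.4%. edgeR calls it biological, but with 1 donor identifier for both libraries it may be technical. It was estimated with TMM factors, whereas the test itself used plain totals. The unadjusted p of the 6 members ran from 0.209 for Mir294 to 0.865 for Mir293 in edgeR's exact test, and 26 of the 455 genes had an unadjusted p under 0.05. Changes as small as those of the members were not simulated for this test, so how many of them it would miss is not known. A missing call therefore does not show that the libraries were alike. The difference of 5 members passed a test of counting error and did not pass one that adds the spread of miRNA genes between the libraries.

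**Figure D4:**
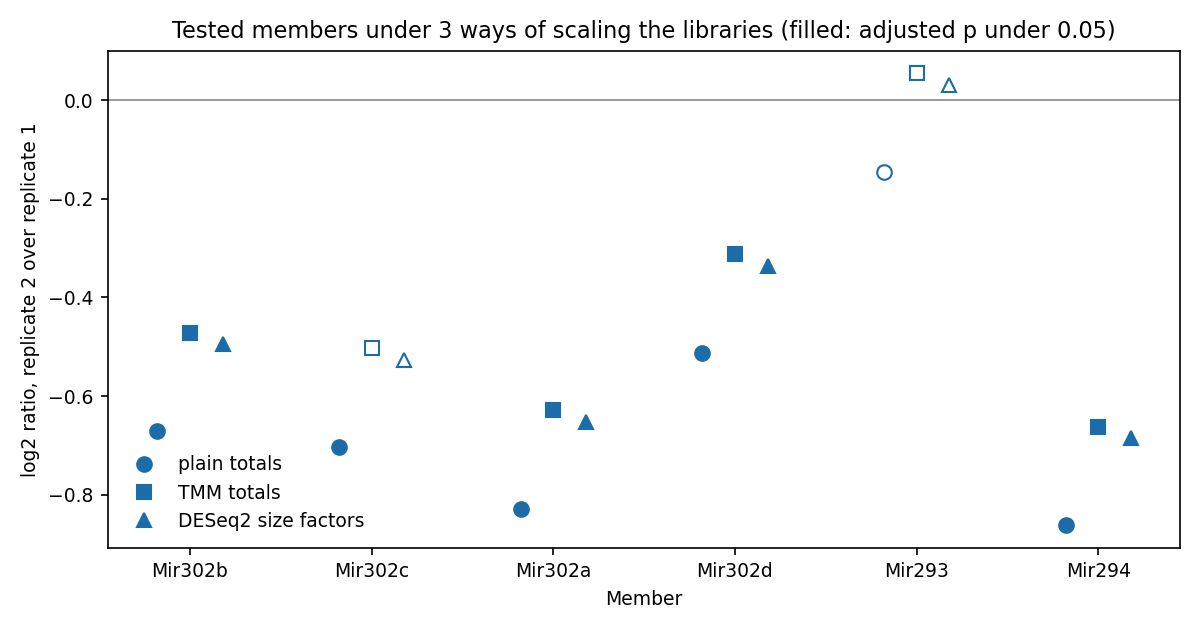
log2 ratio (replicate 2 over replicate 1) of the 6 tested members with plain totals, TMM totals and DESeq2 size factors, filled where the adjusted p was under 0.05 in the fit over all genes. Mir302c loses its call under both other scalings and Mir293 changes sign.

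Markers of other cell types moved in both directions between the libraries, and their counts by Fisher's exact test stand beside the same 35.6% of all genes lower and 16.9% higher. With TMM totals these shares were 25.5% and 27.3%. Both listed red cell genes (Mir451a and Mir144) were called lower, also with TMM totals, and their sum went from 427 to 175 CPM. All 4 leukocyte genes were called lower with plain totals and 2 of 4 with TMM totals, with sums of 1147 and 854 CPM. The 3 genes of the germ cell list were called lower with plain totals and 2 of 3 with TMM totals, with sums of 2282 and 1777 CPM. Of 6 gonad genes only Mir202 was tested and it was called lower, with the sum at 33.0 and 19.8 CPM and 4 genes at 0 in both libraries.

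Of 11 listed neuronal genes 3 were called lower and 2 higher, and 4 had no read in either library, among them Mir124a-1. Their sum went from 2468 to 809 CPM, most of it carried by Mir129-2, at 1593 and 242 CPM. Mir129-1 and Mir129-2 were also called lower by edgeR's exact test (adjusted p = 0.0401 and 0.0127). The corticotropin response list had 2 of 3 genes higher and 1 lower. The neuroendocrine list had 2 of 4 lower and 1 higher with plain totals, and 1 lower and 3 higher with TMM totals. The liver marker Mir122 was called higher, from 78.1 to 108 CPM. Both tested kidney genes were called lower, also with TMM totals, and the sum of that list went from 55.8 to 32.8 CPM. The endothelial Mir126a was called lower with plain and with TMM totals. Both smooth muscle genes were called lower with plain totals, against 1 lower and 1 higher with TMM totals. Of the striated muscle list 3 genes were tested and 0 called. The part of these cell types in the members' difference was not tested, and fewer cells of a type and less RNA per cell cannot be told apart in a bulk sample.

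The 5 genes outside the clusters nearest to Mir302a in log2(CPM + 1) over the 2 libraries were Mir1249, Mir34b, Mir1193, Mir136 and Mir7-2, at distances of 0.095 to 0.30. Each of them was called lower in replicate 2 by Fisher's exact test, with log2 ratios from -1.02 to -0.67. As nearness used the values of both libraries, this follows from how they were picked.

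Some related miRNAs outside the clusters were far more abundant. The miR-17 family, which drives proliferation in many tissues, has a seed that contains the same AAGUGC letters 1 base further along. It is shown beside that of miR-92a, which has the seed of miR-367-3p.
mmu-miR-17-5p: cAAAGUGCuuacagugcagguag
mmu-miR-93-5p: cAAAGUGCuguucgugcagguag
mmu-miR-92a-3p: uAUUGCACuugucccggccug
mmu-miR-25-3p: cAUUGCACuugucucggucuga
Mir93 stood at 2232 and 1809 CPM and Mir17 at 1402 and 1189 CPM, which is 19.0-fold and 27.3-fold, and 11.9-fold and 17.9-fold, the count of Mir302a in the same library. The 7 genes with the seed AAAGUGC summed to 5132 and 4054 CPM. By comparison, the 5 genes with the seed AAGUGCU summed to 214 and 139 CPM, not counting Mir302a, whose 3′ strand had no entry.

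The listed miR-17 family, with Mir18 and Mir18b whose seed is AAGGUGC, had 7 of 8 genes tested, of which 5 were lower in replicate 2 by Fisher's exact test and 0 higher, beside 35.6% and 16.9% of all genes. Their median log2 ratio was -0.30. The log2 ratio farthest from 0 was that of Mir20b at -1.52, from 28.3 to 9.82 CPM. With TMM totals 4 of the 7 were called lower, beside 25.5% of all genes. The list of miR-25 and miR-92, which share the seed AUUGCAC with miR-367-3p, had all 6 genes detected, with 4 lower and 0 higher beside the same shares of all genes, or 3 lower with TMM totals, and a median of -0.43. Mir92-1 led it at 1022 and 679 CPM. Its level is uncertain, since Mir92-1 and Mir92-2 give the same miR-92a-3p and such reads match both genes. In edgeR's exact test none of these genes was called.

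**Figure D5:**
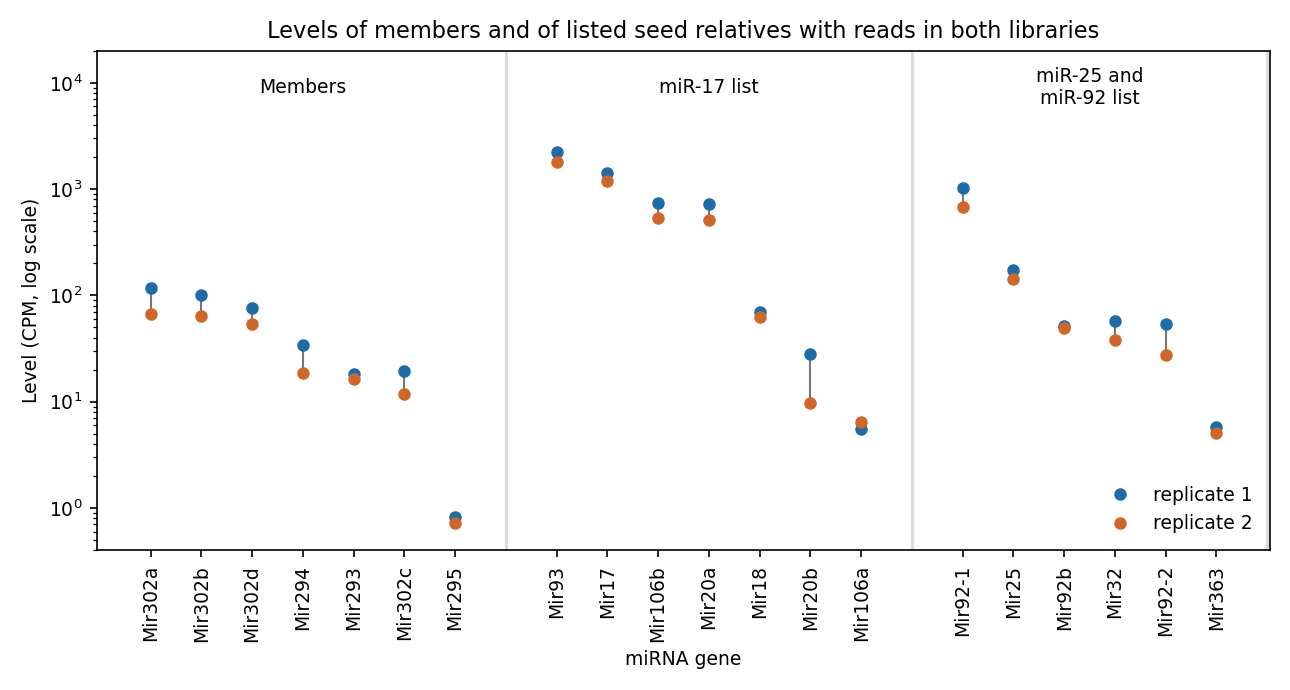
Level in CPM (log scale) of the members with reads and of the genes of the miR-17 and of the miR-25 and miR-92 lists that had reads in both libraries, 1 point per library. Mir17 lies at 1402 and 1189 CPM and Mir302a at 118 and 66.3 CPM.

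A list of miRNAs described as acting against pluripotency factors, or as rising when cells leave pluripotency, had 7 of 8 genes detected and Mir470 at 0 in both libraries. Mir21a stood at 13006 and 28072 CPM, Mir34a at 2912 and 3379 CPM and Mir134 at 1283 and 1261 CPM. By Fisher's exact test 3 of the 7 tested were higher in replicate 2 (Mir21a, Mir34a and Mir203), 2 were lower (Mir145a and Mir296) and 2 were not called, with a median log2 ratio of -0.02. Of all genes tested, 16.9% were called higher and 35.6% lower by Fisher's exact test. With TMM totals 4 of the list were higher and 2 lower, beside 27.3% and 25.5% of all genes. By edgeR's exact test none of the list was called, beside 1.1% of all genes.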

How the data were processed

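The authors deposited raw read counts per miRNA gene, 1 table per library with 3 unnamed count columns. Their notes name mm10 as the assembly and GENCODE M21 as the annotation, and for the aligner, the counter and trimming nothing is stated in the sources used. The columns were read from the values as both strands, 1 strand and the other strand. The strand column is the main one, as the both-strand column drops reads over genes that overlap on opposite strands. Rows that name no gene were left out: unmapped (16.1% and 16.5% of all reads in replicates 1 and 2), multimapping (31.6% and 33.6%) and reads on no miRNA gene (5.55% and 5.00%).

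Counts were scaled to CPM, and log2 ratios used an offset of 0.5 counts. Genes with at least 10 reads over both libraries were tested with Fisher's exact test, two-sided, and p-values adjusted by Benjamini-Hochberg over all of them at 0.05. An exact binomial test replaced it under TMM and DESeq2 totals. edgeR's exact test used 1 dispersion for all genes. Intervals are exact (95%). Reads were not collapsed to molecules, so intervals and the allowance of 3 reads for a count of 0 cover counting error only. Alternatives were other columns, totals, filters and offsets. Fisher's and the binomial test were run on simulated counts with counting error alone, so those runs do not cover further spread between libraries. edgeR's exact test was run on simulated counts with changes larger than those of the members. Named genes are the 8 members, the rest of the clusters, listed relatives and markers, and the 5 genes nearest to the most abundant member. Members and lists were chosen with earlier results of these data known. Tools were edgeR 4.0.16 and DESeq2 1.42.0 in R 4.3.3, and scipy 1.17.1, numpy 2.4.6, pandas 2.3.3 and matplotlib 3.10.9 in Python 3.11.15.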

Additional observations from a re-analysis of the deposited data

Results flagged for a closer look

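Reads in the other-strand column, which no test between the libraries used, were found for Mir292b of the miR-290 cluster. There were 68 in replicate 1 and 110 in replicate 2, above the 3 that a count of 0 allows. The strand column held the same 68 and 110 reads for Mir292, which overlaps Mir292b on the opposite strand, and none for Mir292b.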

How the results depend on the processing

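The summed level of the 8 genes, 299 CPM, was 231 to 367 CPM with 1 library left out and 138 CPM when all reads of the library, mapped or not, were the total. It stayed within 1 SD with the both-strand column and under TMM and DESeq2 totals. With edgeR's exact test the 239 genes called became 5 and the 5 members called lower became 0, while the other alternatives gave 217 to 243 genes and 4 or 5 members. The member that lost its call under both TMM and DESeq2 totals was Mir302c. The log2 ratio of Mir293, not called, reversed to 0.054 with TMM and 0.031 with DESeq2 totals. The cause of these changes was not tested. No paired analysis was possible because there is 1 group. Depth limits Mir295 and Mir367 and the precision of Mir302c and Mir293.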
